A study of Homo sapiens and Mus musculus with 21 samples.

Results

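Of 60674 genes counted in 2 human mesothelioma cell lines, 134 stood at or below 0.5 of their control level in both lines when a short hairpin RNA against BAP1 was expressed. The genes were chosen from measured values. Levels are CPM, a gene's count divided by the total of its library and scaled to 1e6, and the ratio of shBAP1 to the random hairpin was taken between the means of 2 libraries after adding 0.25 CPM to each. A gene was chosen if this ratio was at most 0.5 and its mean with the random hairpin at least 1 CPM in each line. Of 11839 genes with that control level in both lines, 141 (1.19%) met the limit. BAP1, the target of the hairpin, was left out, as were 6 genes whose ratio of GSK126 to DMSO in H2810 was 2 or more (PPFIA4, PCDHB5, PCDHB8, CRYAB, RBM20 and ATRNL1). The 134 genes hold 130 protein-coding genes and 4 long noncoding RNAs.

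BAP1 removes ubiquitin from histone H2A and is a tumour suppressor often lost in mesothelioma, a tumour of the lining of the lung. Its loss leaves more of the ubiquitin mark that Polycomb complexes place. EZH2, the methyltransferase of the Polycomb repressive complex PRC2, is inhibited by GSK126. Mesothelioma cells make much extracellular matrix, attach to it through integrins and focal adhesions, and often carry altered Hippo signalling, the pathway that restrains the YAP and TEAD regulators.

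The knockdown libraries were H2810 and MSTO-211H with shBAP1 or the random hairpin, 2 libraries for each line and hairpin. H2810 is labelled wildtype for Bap1, while the label of MSTO-211H gives the line and the hairpin alone. The drug libraries were H2810 and H2731, the latter labelled as mutated for Bap1, each with GSK126 or its vehicle DMSO, 2 libraries each. Mouse mesothelioma cells were of genotype Bap1-/-, Nf2-/- and Cdkn2ab-/- (called BNC, 3 libraries) or Nf2-/- and Cdkn2ab-/- (called NC, 2 libraries), so both mouse groups lack Nf2 and Cdkn2ab. The sources used here give no drug dose, treatment time or hairpin sequence. Nothing in the labels tells separate cultures from repeat libraries, so p-values measure the spread between these libraries, which may be technical.

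The knockdown libraries held 19707304 to 23217215 counts each, the drug libraries 17927837 to 22927239 and the mouse libraries 13693927 to 22916482. BAP1 itself (ENSG00000163930, chromosome 3, 52401008 to 52410008) had 116 and 119 CPM with the random hairpin against 13.4 and 21.0 with shBAP1 in H2810, and 99.2 and 102 against 15.01 and 17.3 in MSTO-211H. Its knockdown was thus of like size in both lines (log2 ratio -2.76 and -2.62). EZH2, the target of the drug, had 37.0 and 37.7 CPM against 42.9 and 43.5 in H2810, and 51.5 and 54.6 against 61.8 and 63.9 in MSTO-211H. Replicates of H2810 differed more than those of MSTO-211H by a chi-square, in which genes with many counts weigh most. This chi-square of counts over genes, divided by its degrees of freedom, came to 17.8 and 18.2 for the H2810 hairpin groups. For MSTO-211H it was 2.31 and 2.34. The median absolute log2 difference between replicates over the chosen genes was alike in both lines. With the random hairpin and shBAP1 it was 0.115 and 0.136 in H2810, and 0.124 and 0.112 in MSTO-211H. Among mouse libraries, BNC replicate 6 stood apart by the chi-square, with 331 and 313 against replicates 4 and 5, against 14.99 between these. Between the 2 NC libraries it was 137.

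The ratios that chose the genes are given here as a description, without a test. The median log2 ratio of shBAP1 to random hairpin over the 134 genes was -1.27 in H2810, with the lowest at -2.76, and -1.43 in MSTO-211H, with the lowest at -2.97. Over all 11839 expressed genes the medians were 0.01 and -0.03. At least 4-fold lower were 12 of the genes in H2810 and 13 in MSTO-211H. MXI1, AL590004.3 and CREBL2 were so in both lines. All 134 genes had both shBAP1 libraries below both random hairpin libraries in each line, as did 23.6% of the expressed genes. Alone, the limit of 0.5 was met by 2.8% of expressed genes in H2810 and by 4.81% in MSTO-211H, and 0.11% were at least 2-fold higher in both. Summed over the genes other than FN1, the level in H2810 was 10194 and 9594 CPM with the random hairpin and 3856 and 3565 with shBAP1. In MSTO-211H the sum was 6169 and 5998 CPM against 2207 and 2184.

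**Figure D1:**
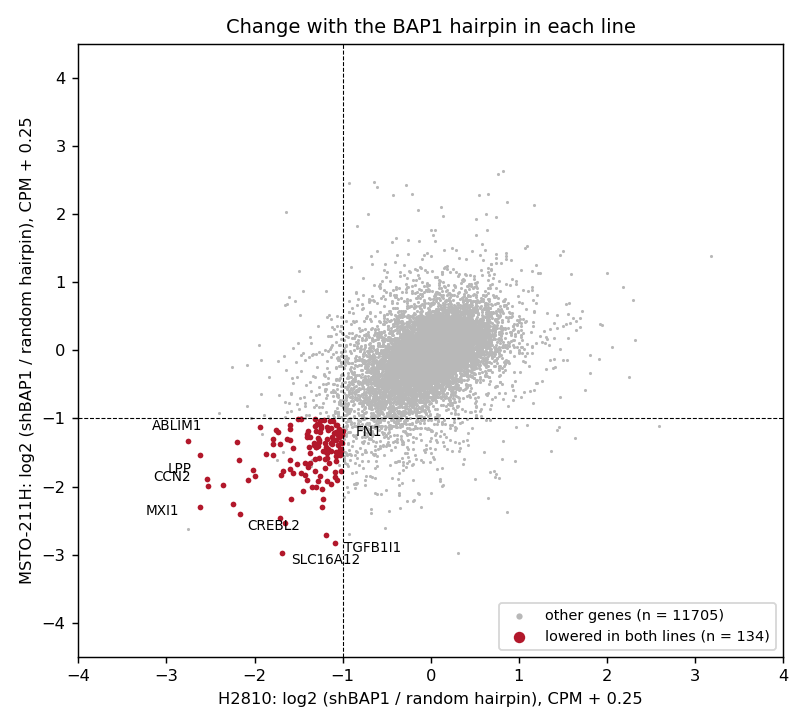
Each point is a gene with at least 1 CPM in the random hairpin libraries of both lines, plotted by its log2 ratio of shBAP1 to random hairpin in H2810 (x axis) and MSTO-211H (y axis). The 134 chosen genes (red) fill the lower left corner by construction, with medians of -1.27 and -1.43.

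The limit of 0.5 cuts through a continuous range. Just inside it lay FN1 (ratio 0.499853 in H2810), the noncoding AC087477.2 (0.499847 in MSTO-211H) and IGF2R (0.497618 in MSTO-211H). Just outside lay ADAMTSL5 (0.500072 in H2810), ZG16B (0.500257 in MSTO-211H) and MARCHF2 (0.500379 in H2810). With the random hairpin, 30 of the 134 genes were below 5 CPM in H2810 and 41 in MSTO-211H.

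Regulators of transcription made up 17 of the genes, with a median log2 ratio of -1.22 in H2810 and -1.45 in MSTO-211H. MXI1, which pairs with MAX and opposes MYC (ENSG00000119950, chromosome 10, 110207605 to 110287365), had 52.2 and 57.8 CPM with the random hairpin and 7.44 and 9.996 with shBAP1 in H2810. In MSTO-211H it had 34.8 and 34.7 CPM against 6.94 and 6.72. MXI1 thus stood well below its control in every library with shBAP1, by log2 ratios of -2.62 and -2.31. CREBL2, a leucine zipper protein related to CREB, had 51.5 and 54.9 CPM against 10.6 and 12.7 in H2810, and 38.1 and 38.4 against 6.14 and 7.93 in MSTO-211H. CDK19, a kinase of the Mediator complex, had 58.9 and 57.8 CPM against 14.9 and 14.1, and 25.02 and 23.8 against 6.38 and 6.89. These 3 genes had the lowest ratios of the group in H2810. VGLL3, a cofactor of TEAD factors, the ETS factor ELK4, TFDP1, the partner of E2F, LMO4, HOXC13, PLAG1 and ZBTB16 were nearer the limit in both lines, with log2 ratios between -1.65 and -1.01.

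Genes of the matrix and secreted factors numbered 12, with medians of -1.32 and -1.34. CCN2, the matricellular connective tissue growth factor and a known YAP/TEAD target, had 611 and 641 CPM with the random hairpin and 104 and 112 with shBAP1 in H2810, and 52.8 and 47.9 against 12.6 and 12.2 in MSTO-211H. F3, the tissue factor that starts blood coagulation, had 19.9 and 21.5 CPM against 3.43 and 4.21, and 248 and 229 against 61.3 and 58.7. CCN2 had its higher level in H2810 and F3 in MSTO-211H, and both had log2 ratios between -2.53 and -1.98. FN1, which encodes fibronectin, had 48571 and 31998 CPM with the random hairpin and 23936 and 16336 with shBAP1 in H2810, so its groups did not overlap although its replicates differed much. In MSTO-211H, where FN1 had 79.0 and 67.3 CPM, it had 31.7 and 32.6 with shBAP1. COL6A3, a chain of collagen VI, had 556 and 419 CPM against 163 and 119 in H2810, but only 1.14 and 1.004 against 0.188 and 0.388 in MSTO-211H. DKK1, a secreted Wnt antagonist, had 113 and 125 CPM against 45.8 and 49.1, and 491 and 489 against 193 and 189. The peroxidase PXDN of basement membranes, the collagen prolyl hydroxylase P4HA2 and the protease inhibitor SERPINE2 were lower too, with log2 ratios between -2.30 and -1.07.

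Fibroblast markers were measured beside the matrix genes. With edgeR's quasi-likelihood test, and a call where the adjusted p was under 0.05, 22.5% of all genes were called higher and 23.3% lower in H2810, and 21.7% and 24.5% in MSTO-211H. Of 12 fibroblast markers tested in H2810, 2 were called higher with shBAP1 and 8 lower, and their summed level was 10855 to 11301 CPM with the random hairpin and 8077 to 8769 with shBAP1. In MSTO-211H 1 was called higher and 5 lower, and the sum was 1138 to 1191 against 1270 to 1373. Most of that sum was COL3A1, the marker called higher, with 871 and 847 CPM against 1144 and 1054. The 5 called lower were PDGFRB, COL1A1, FAP, LUM and DCN. LUM in H2810, and COL1A2 and DPT in MSTO-211H, were at 0. Their part in the levels of the matrix genes was not tested. Both are cell lines, so the markers describe expression within each line and not a separate cell type. In bulk libraries a change in every cell and a change in some of the cells cannot be told apart. Of 18 mesothelial markers, 9 were below 1 CPM in H2810 and 8 in MSTO-211H, MUC16 at 0 in both. Of the 12 tested in each line, 5 were called higher and 1 lower in H2810, and 7 and 2 in MSTO-211H. CALB2, the calcium-binding protein calretinin, rose by log2 fold changes of 0.88 and 2.23, and UPK3B by 2.19 in MSTO-211H. Those called lower were ITLN1 in H2810 (-0.35), and THBD (-3.03) and BNC1 (-0.55) in MSTO-211H. The summed level of the markers was 1812 to 1917 CPM with the random hairpin and 1801 to 1850 with shBAP1 in H2810, and 8831 to 9530 against 10490.4 to 10991 in MSTO-211H. Their part in the results was not tested. Below 1 CPM were also 11 of 12 leukocyte markers in H2810 and all 12 in MSTO-211H, 5 and 7 of 9 endothelial markers, and 12 of 14 epithelial markers in each line.

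Adhesion molecules of the cell surface numbered 12, with medians of -1.38 and -1.45. PTGFRN, a partner of tetraspanins, had 34.7 and 35.1 CPM against 8.49 and 7.71 in H2810, and 108 and 103 against 28.3 and 28.1 in MSTO-211H. ALCAM, an immunoglobulin-family adhesion molecule, had 759 and 762 CPM against 221 and 220, and 765 and 738 against 295 and 283. With the random hairpin its levels were nearly alike in both lines. L1CAM, the atypical cadherin FAT4, the mucin-like HEG1, the Hedgehog co-receptor CDON and SSPN of the dystrophin complex were also chosen, with log2 ratios between -1.65 and -1.17. The other 5 were clustered protocadherins: PCDHB2, PCDHB16, PCDHB9, PCDHB12 and PCDHB15 lie in this order on chromosome 5, with gaps of 82696, 728, 17156 and 32824 bases between neighbours. Of 9 PCDHB genes with 1 CPM or more in both control groups, these 5 were members, PCDHB5 and PCDHB8 were removed by their drug ratio, and all 9 had a ratio below 1 in both lines. PCDHB genes are close copies, and nothing in the labels says how shared reads were counted, so their single values are uncertain.

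The cytoskeleton and focal adhesions were represented by 8 genes, with medians of -1.38 and -1.80. LPP, a zyxin-family protein of focal adhesions, had 201 and 134 CPM with the random hairpin and 32.7 and 24.6 with shBAP1 in H2810, and 91.3 and 90.2 against 25.1 and 23.7 in MSTO-211H. ABLIM1, which binds actin, had 93.8 and 87.9 CPM against 13.3 and 13.1 in H2810, and 4.03 and 3.35 against 1.13 and 1.51 in MSTO-211H. TGFB1I1, a paxillin relative, had 14.5 and 16.3 CPM against 6.43 and 7.76, and 6.87 and 7.03 against 0.797 and 0.732. ABLIM1 thus had the lower ratio in H2810 (log2 -2.76 against -1.33) and TGFB1I1 the lower ratio in MSTO-211H (-2.83 against -1.09). The tensin TNS1, the actin crosslinker PALLD, ABLIM3, CARMIL2 and NAV2 had log2 ratios between -2.19 and -1.02.

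**Figure D2:**
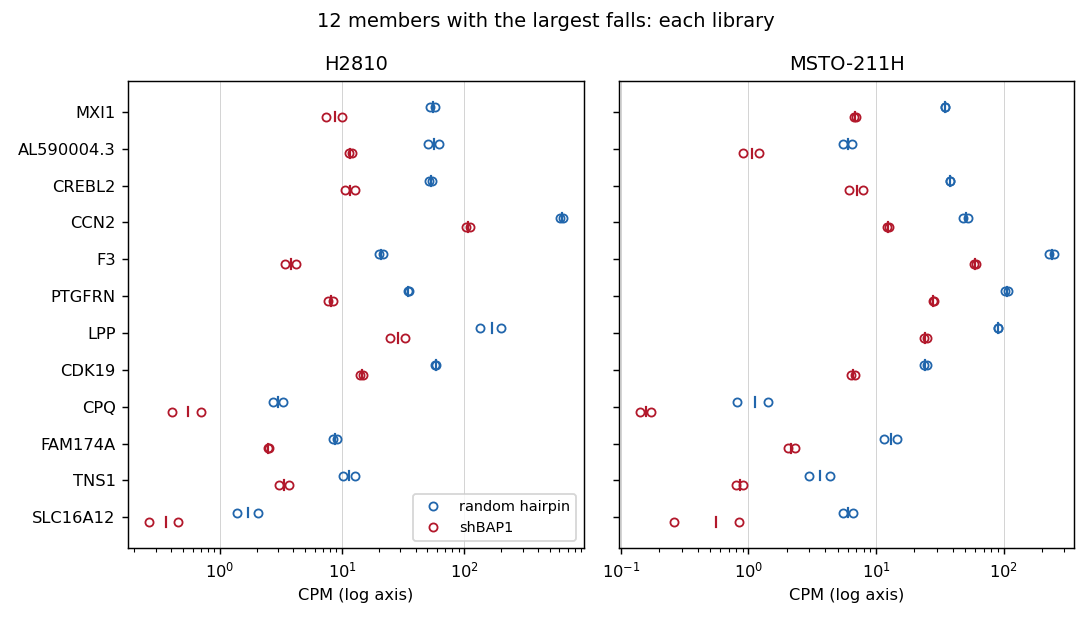
CPM on a log axis in H2810 (left) and MSTO-211H (right) for the 12 genes whose difference was largest in the line where it was smaller, with 1 circle per library and a bar at each group mean. For every gene and line the 2 shBAP1 libraries (red) lie below the 2 random hairpin libraries (blue), as for MXI1 in H2810 at 7.44 and 9.996 against 52.2 and 57.8 CPM.

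Signalling proteins numbered 15 (medians -1.31 and -1.27). EIF4EBP2, which holds back translation initiation, had 195 and 190 CPM against 42.4 and 41.1 in H2810, and 74.6 and 75.2 against 30.1 and 28.3 in MSTO-211H. YWHAB, a 14-3-3 adaptor, had 405 and 436 CPM against 205 and 203, and 401 and 394 against 174 and 182, close to the limit in H2810. The cyclic nucleotide phosphodiesterase PDE1C stood at log2 ratios of -1.66 and -2.54, and the stress kinase MAP3K20, the mTOR inhibitor DEPTOR and the adaptor GAB1 were chosen as well. Endosomes, vesicles and the secretory pathway held the most genes, 21 (medians -1.30 and -1.44). IGF2R, which sorts lysosomal enzymes, had 719 and 513 CPM against 260 and 183 in H2810, and 178 and 174 against 88.8 and 86.2 in MSTO-211H. RAB5C of early endosomes, VPS4B and STAM2 of the ESCRT pathway, the lysosomal protease CTSF, the cholesterol transporter STARD3 and the Golgi mannosidases MAN1A2 and MAN2A1 were among them, at log2 ratios between -1.77 and -1.01.

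Metabolic enzymes and transporters numbered 10 (medians -1.23 and -1.42). CA12, a membrane carbonic anhydrase, had 51.1 and 54.8 CPM against 23.0 and 23.0 in H2810, and 49.2 and 49.7 against 7.78 and 6.89 in MSTO-211H. Its starting level was alike in both lines while its log2 ratio was -1.19 in H2810 and -2.71 in MSTO-211H. SLC16A12, a solute carrier of the monocarboxylate transporter family, had 1.38 and 2.04 CPM against 0.264 and 0.457, and 5.50 and 6.59 against 0.844 and 0.258, the lowest ratio of all in MSTO-211H. The peptidase CPQ had 2.73 and 3.28 CPM against 0.704 and 0.406 in H2810, and 0.806 and 1.43 against 0.141 and 0.172 in MSTO-211H. Both genes had few counts. Immune ligands and receptors numbered 5 and had a lower median in MSTO-211H (-1.92) than in H2810 (-1.22). Among them were PDCD1LG2, the PD-1 ligand PD-L2, the chemokine CXCL16, TNFSF12 and SLAMF7, all below 8 CPM with the random hairpin. Ciliary genes numbered 5 (medians -1.13 and -1.14), and 25 genes were put in no group. Among these, FAM174A had 8.48 and 9.04 CPM against 2.46 and 2.54 in H2810, and 14.5 and 11.6 against 2.30 and 2.02 in MSTO-211H. Of the 4 noncoding RNAs (medians -1.87 and -1.36), AL590004.3 had 61.7 and 50.8 CPM against 11.97 and 11.4 in H2810, and 6.54 and 5.54 against 1.22 and 0.905 in MSTO-211H. The sources used here do not say whether counting used strand, so reads of TRAM2-AS1 and of genes it overlaps cannot be told apart.

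The limit held in both lines, which bounds how far the lines' ratios can lie apart, so these counts are a description. The log2 ratios of the lines differed by less than 0.5 for 98 of the 134 and by more than 1 for 6, and 92 were the lower in MSTO-211H. The 6 were ABLIM1 and the noncoding AL355075.4, lower in H2810, and TGFB1I1, CA12, SLC16A12 and P4HA2, lower in MSTO-211H. With the random hairpin 96 genes were higher in H2810 and 38 in MSTO-211H, 26 and 6 of them at least 4-fold. The rule set no upper limit on these starting levels, so their spread is not compared with that of the ratios. Shares over all expressed genes are not given for these counts or for the 92 lower in MSTO-211H. Nothing about the chosen genes is therefore read from them.

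A run of letters in the 3' untranslated regions (UTRs), which the choice of genes did not use, was shared by many of them. Over the annotated UTRs of 130 of the genes, from GENCODE on GRCh38, the 7-mer GCACCTT was found in 44 (33.8%). Of 10905 expressed genes with a UTR, it was found in 1128 (10.3%). Of 12118 7-mers present in at least 3% of UTRs, it had the highest ratio of these shares (3.27, the second 2.65). By the difference of the shares CACCTTT, which overlaps it, came first (40.8% against 16.7%) and GCACCTT second. The limit of 3% was chosen after seeing the data. The sites of the genes with low ratios named above are shown with the only site in the coding sequence of BAP1, on GRCh38, 5' to 3' on the gene's strand, with the 7-mer in capitals. These show how little the sites share outside the 7-mer.
BAP1, coding sequence, chr3:52402621-52402646, minus strand: acgatgagttcatctGCACCTTtatc
CREBL2, chr12:12642287-12642312, plus strand: gaagattgtatttttGCACCTTaact
CCN2, chr6:131948208-131948233, minus strand: aaaagttacatgtttGCACCTTtcta
F3, chr1:94530208-94530233, minus strand, 1 of 2 sites: atttttaacaccatgGCACCTTttgc
PTGFRN, chr1:116987669-116987694, plus strand: ttggctctccactgaGCACCTTatct
LPP, chr3:188888398-188888423, plus strand: ttgagaaaaacgattGCACCTTctcc
CDK19, chr6:110614217-110614242, minus strand, 1 of 2 sites: gaaggatttcctggtGCACCTTtctc

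Of the 15 bases before the 7-mer, 2 to 5 were the same as in BAP1 in these genes. MXI1, FN1, COL6A3, TNS1, CPQ, FAM174A and SLC16A12 had no such site in the annotated UTR. The 7-mer complements bases 2 to 8, the seed, of 3 human miRNAs in the RefSeq table on GRCh38, shown with the seed in capitals because they are the miRNAs whose seed pairs with it. No miRNA was measured in these poly-A libraries, and the sequence of the hairpin was not analysed here. With a random hairpin as the only control, loss of BAP1 and other effects of the BAP1 hairpin cannot be told apart. Any part of the 7-mer in the lower levels was not tested.
hsa-miR-18a-5p, chr13:91350756-91350778, plus strand: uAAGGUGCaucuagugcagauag
hsa-miR-18b-5p, chrX:134170084-134170106, minus strand: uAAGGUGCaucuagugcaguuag
hsa-miR-4735-3p, chr1:196582417-196582437, minus strand: aAAGGUGCucaaauuagacau

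Longer UTRs hold more 7-mers, and the chosen genes had longer ones, with a median of 1830 bases against 1411 over all expressed genes. GCACCTT was picked for its share in these same genes, so the shares by UTR length are a description and no test. Within each class of UTR length the share with GCACCTT was higher among the chosen genes. It was 12.5% (4 of 32) against 2.86% under 1000 bases, 34.3% (12 of 35) against 8.13% from 1000 to under 2000, 39.4% (13 of 33) against 14.6% from 2000 to under 4000, and 50% (15 of 30) against 27.5% from 4000. Genes lowered to the limit in 1 line held the 7-mer in 24.8% (39 of 157) for H2810 alone and in 16.8% (67 of 400) for MSTO-211H alone. Genes at least 2-fold higher held it in 5.45% and 7.75%. Members with and without the 7-mer had median log2 ratios of -1.30 and -1.24 in H2810, and -1.48 and -1.42 in MSTO-211H, but both sets were chosen on these ratios and nothing is read from them. Over all expressed genes the median log2 ratio was -0.18 in H2810 and -0.22 in MSTO-211H with the 7-mer, and 0.04 and -0.01 without it. These medians include the chosen genes and take no account of UTR length. The UTRs of the chosen genes had a median GC content of 37.96% against 41.8%, and their genes a median span of 51.8 kb against 35.1 kb.

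**Figure D3:**
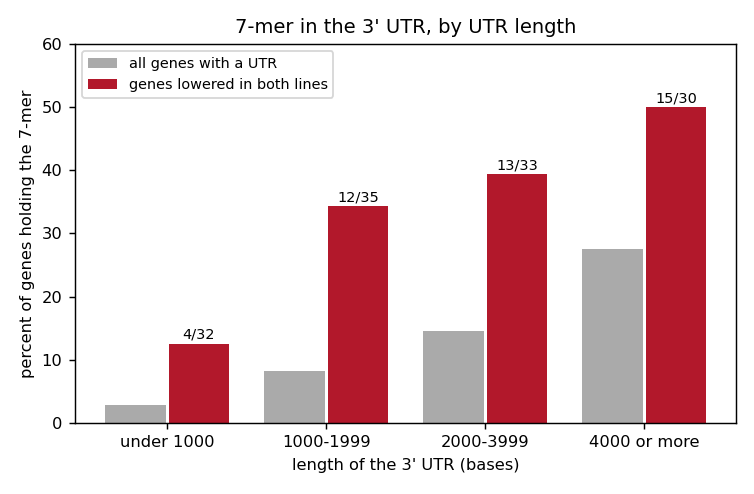
Percent of 3' UTRs that hold the 7-mer named in the text, by UTR length class, for the chosen genes and for all expressed genes. In each of the 4 classes the chosen genes have the higher share, from 12.5% against 2.86% to 50% against 27.5%. The 7-mer was picked for its share in these same genes.

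RefSeq promoter windows, from 250 bases before to 50 after the start, were found for 99 of the 134 genes and for 9222 expressed genes. Motifs were searched on both strands. The TEAD letters GGAATG occurred in 17 of the 99 windows (17.2%) against 10.6% of all, the AP-1 letters TGACTCA in 3.03% against 2.72%, and the YY1 letters AAGATGGC in 2.02% against 5.95%. A match is no more than a description of the letters.

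Inhibition of EZH2 was tested in H2731, whose libraries took no part in choosing the genes. The rule had removed 6 genes that the same drug raised at least 2-fold in H2810, so these are not counted here. With GSK126, 43 of the 133 genes tested were called higher and 2 lower than with DMSO, where called means an adjusted p under 0.05 in edgeR's quasi-likelihood test over 15999 genes. That is 32.3% and 1.5%, against 13.8% and 10.9% of all genes tested, and 15.4% and 13.5% of those expressed in both knockdown lines. The median log2 fold change was 0.14, against -0.01 over the expressed genes, and 97 of the 133 were above 0 (72.9% against 47.2%). The number called higher fell when GSK126 replicate 2 was left out, and no share of all genes is given for that fit. Of the genes, 5 were called and at least 2-fold higher, against 0.668% of expressed genes and 1.26% of all tested: PRUNE2, COL6A3, AL590004.3, SSPN and PALLD. None was called and at least 2-fold lower, against 0.0591% and 0.275%. AL355075.4 had too few counts to be tested.

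PRUNE2, a gene with a BCH domain, had 6.24 and 7.44 CPM with DMSO and 45.3 and 51.0 with GSK126 (log2 fold change 2.81 ± 0.09 SE, adjusted p = 5.9e-14). AL590004.3 had 7.28 and 7.999 CPM against 23.6 and 23.2 (1.61 ± 0.10, adjusted p = 3.5e-10). COL6A3 went from 0.39 and 0.36 CPM to 1.24 and 1.53 (1.85 ± 0.49, adjusted p = 0.0095), a low level in both groups. Its call was lost with limma-voom (adjusted p = 0.0749), and also in edgeR when either DMSO library (0.0800 for the first, 0.0655 for the second) or GSK126 replicate 2 (0.0597) was left out. All GSK126 libraries lay above the DMSO libraries for these 3 genes. PALLD rose from 12.5 and 13.3 to 29.1 and 26.9 CPM (1.11 ± 0.07, adjusted p = 1.1e-09), and VGLL3 from 39.8 and 47.3 to 83.7 and 90.1 (0.99 ± 0.06, adjusted p = 8.2e-10). SERPINE2 rose from 33.8 and 35.6 to 59.9 and 63.8 CPM and F3 from 35.7 and 39.6 to 67.8 and 66.4, each by 0.82 on the log2 scale. CCN2 rose from 69.1 and 67.8 to 108 and 103 CPM (0.61 ± 0.04, adjusted p = 1.3e-09). None of these groups overlapped.

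By role, 7 of the 12 matrix and secreted genes were called higher, 5 of the 12 adhesion genes, 3 of the 8 cytoskeletal genes, 8 of the 21 genes of vesicles and the secretory pathway, 5 of the 17 transcription genes, 5 of the 15 signalling genes, 3 of the 10 metabolic genes, 1 of the 5 immune genes, 1 of the 3 noncoding RNAs tested, none of the 5 ciliary genes and 5 of the 25 in no group. The share was 13.8% over all genes tested and 15.4% over those expressed in both knockdown lines. FN1 was called at 0.48 ± 0.07, from 328 and 339 to 441 and 500 CPM, HEG1 at 0.57 ± 0.04 and ABI3BP, a matrix protein, at 0.70 ± 0.06. Called lower were the kinase gene ALPK2, with 98.8 and 106 CPM against 83.2 and 85.0 (-0.30 ± 0.04, adjusted p = 5.9e-05), and SEZ6L2, with 40.7 and 39.0 against 34.2 and 35.3 (-0.21 ± 0.06, adjusted p = 0.013). SEZ6L2 was not called with DESeq2 (adjusted p = 0.186) or without DMSO replicate 1 (0.119) or GSK126 replicate 1 (0.0812). Without DMSO replicate 1, 1 gene was called lower, and without DMSO replicate 2, 4 were. The genes lowest with shBAP1 were not always among the calls: MXI1 stood at 0.06, CREBL2 at 0.04 and CDK19 at 0.10, and none of these 3 passed the test. Of the members with GCACCTT, 13 of 44 were called higher, and of those without it 29 of 86.

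**Figure D4:**
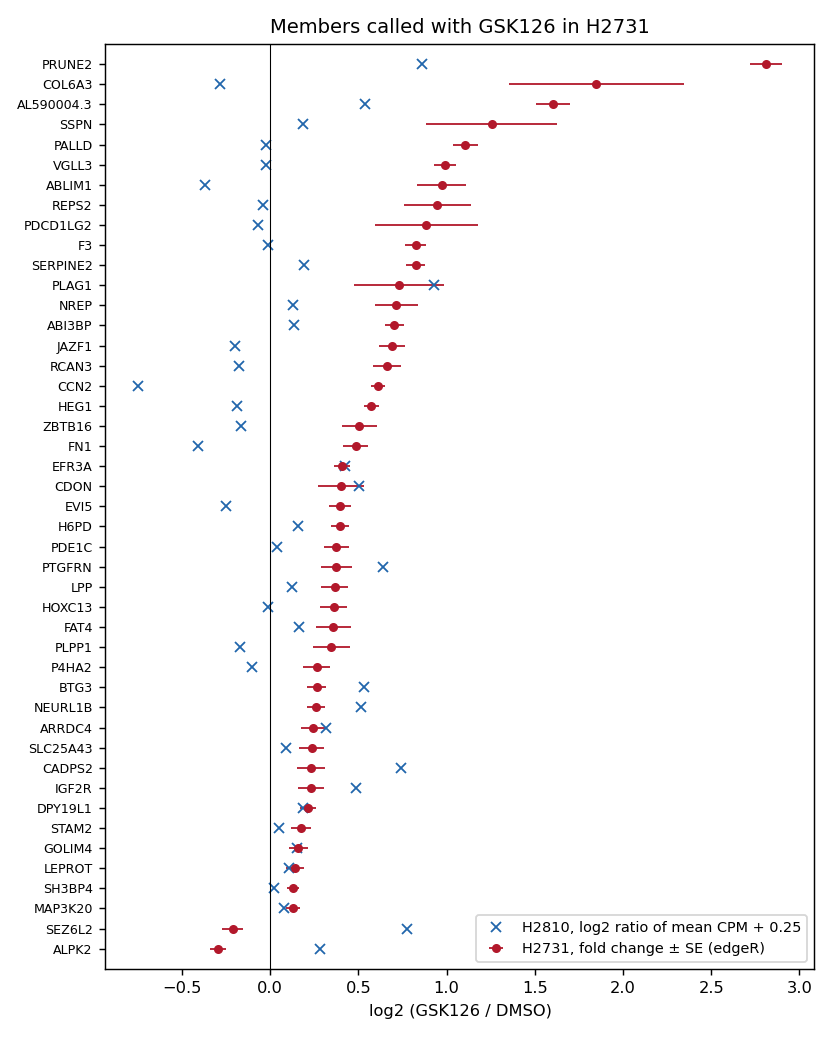
Log2 of GSK126 over DMSO for the 45 genes called in H2731, as the edgeR fold change ± SE (red), with the ratio of mean CPM in H2810 (blue crosses) beside it as a description. In H2731 43 points lie above 0, led by PRUNE2 at 2.81, and SEZ6L2 and ALPK2 lie below, while CCN2 is at 0.61 in H2731 and -0.75 in H2810.

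In H2810 the response to GSK126 was used to remove genes and is a description only. Of the 134 genes, 91 were at or above their DMSO level, and 56.3% of expressed genes were above it. Their median log2 ratio was 0.12, from -0.75 for CCN2 to 0.99 for CA12, with 23 at 0.5 or more and CCN2 alone at -0.5 or less. Summed without FN1, the level was 9666 and 10169 CPM with DMSO and 9738 and 9909 with GSK126 in H2810, against 7564 and 7714 and then 8349 and 8693 in H2731.

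The lines themselves were compared under DMSO, with the H2731 libraries that also served as controls above. H2731 had 37 of the 133 genes called higher and 83 lower than H2810 (27.8% and 62.4%), against 41.5% and 40.7% of all genes tested and 41.7% and 43.4% of expressed genes. The median log2 fold change was -0.73, against -0.02 over the expressed genes. Called and at least 2-fold higher were 18 of them, against 12.8% of expressed genes and 19.4% of all tested, and 57 were at least 2-fold lower, against 19.8% and 22.7%. The rule asked for expression in H2810 and not in H2731, and used the H2810 DMSO libraries to remove 6 genes, so this comparison is not independent of it. The part of the rule in this balance was not tested. The lines differ in origin as well as in Bap1, so the genotype and the line cannot be told apart.

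CCN2 had 1145 and 1126 CPM in H2810 and 69.1 and 67.8 in H2731 (-4.10 ± 0.04, adjusted p = 1.2e-24). FN1 had 19231 and 24110 CPM against 328 and 339 (-6.07 ± 0.08), and PALLD 180 and 187 against 12.5 and 13.3 (-3.88). DKK1 had 126 and 118 CPM against 4.14 and 4.23 (-4.90), and the transcription factor ZBTB16 260 and 287 against 9.55 and 10.7 (-4.80). In the other direction, L1CAM had 36.0 and 36.9 CPM in H2810 and 602 and 592 in H2731 (3.99 ± 0.04, adjusted p = 2.7e-24). ALPK2 had 11.3 and 11.5 CPM against 98.8 and 106 (3.12), and the Notch-pathway ligase NEURL1B 7.70 and 8.44 against 59.5 and 60.5 (2.84). SEZ6L2, MAN2A1 and SH3BP4 were higher by 2.58, 1.54 and 1.22 on the log2 scale, and the protease CTSF was at -4.26. By role, 9 of 12 matrix genes, 10 of 12 adhesion genes and 7 of 8 cytoskeletal genes were called lower in H2731. So were 8 of 10 metabolic genes, 4 of 5 immune genes and 11 of 21 vesicle and secretory genes. Signalling genes were split, with 8 higher and 7 lower of 15, as were transcription genes, with 7 and 8 of 17. Over all expressed genes 41.7% were called higher and 43.4% lower.

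**Figure D5:**
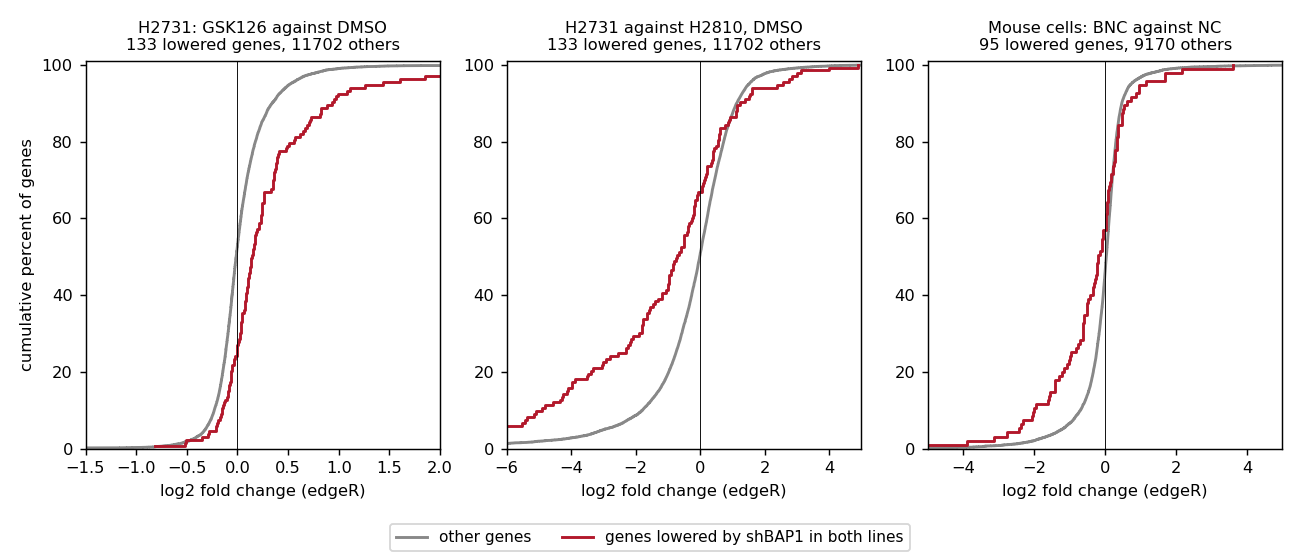
Cumulative percent of genes by log2 fold change in 3 comparisons, for the chosen genes (red) and the other expressed genes (grey). With GSK126 in H2731 the red curve lies to the right of the grey one (median 0.14), and between the lines it lies mostly to the left (median -0.73).

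In the mouse cells, 119 of the genes had an ortholog by symbol or synonym and 95 were tested. None was called between BNC and NC in edgeR, and none of all 12225 genes was (0%). At an unadjusted p under 0.05, 10 of the 95 were lower in BNC and none higher, against 4.61% lower and 2.12% higher of all genes tested, and 4.09% and 1.92% of those with an expressed human ortholog. DESeq2 called 5 orthologs, all lower (CCN2, LMO4, HSD17B11, CPQ and COL6A3), and limma-voom none. Of all mouse genes with an adjusted p in DESeq2, 1.75% were called lower and 0.733% higher, and 1.66% and 0.65% of those with an expressed human ortholog. Mouse CCN2 had 244, 240 and 194 CPM in BNC and 553 and 704 in NC (adjusted p = 0.497 in edgeR). LMO4 had 77.2, 76.2 and 68.3 CPM against 154 and 187. TNS1 had 172, 177 and 33.6 CPM against 528 and 565, and its low value is from BNC replicate 6. The groups did not overlap for these 3 genes, and TNS1 was not among the DESeq2 calls. Other orthologs had every BNC library above both NC libraries, among them VGLL3, TGFB1I1, ERLIN1 and TFDP1. No share of genes with groups apart is given, so nothing is read from it. F3 (log2 fold change 0.06), FN1 (0.01) and MXI1 (-0.25) did not pass at either level. The biological coefficient of variation, the spread that edgeR fits over all genes, was 0.539 in the mouse and 0.0311 in the drug table.

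Members were counted in the pathway lists among genes with 1 CPM or more in both control groups, where the 134 are 1.13% of all 11839 such genes. Members were 3 of 38 of the actin cytoskeleton (ABLIM1, ABLIM3, PALLD), 3 of 30 of focal adhesions (LPP, TGFB1I1, TNS1) and 3 of 27 hypoxia and glycolysis genes (CA12, P4HA2, MXI1). They were 2 of 24 YAP/TEAD targets (CCN2, F3), 2 of 27 matricellular genes (FN1, CCN2), and 1 each of 16 collagens, 22 Wnt genes and 26 HOX genes. None was among 29 interferon-stimulated genes, 35 cell cycle genes, or the listed PRC2 and PR-DUB subunits, TGF-beta, receptor kinase, FGF, ERK, axon guidance, EMT and developmental regulator genes. Against a share of 1.13%, nothing is read from lists of this size without a member. The lists were chosen with earlier results of these data known. Shares of lists with members are thus a description and no support.

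The other genes of these lists were tested with shBAP1, to be read against the shares of all genes called (22.5% higher and 23.3% lower in H2810, 21.7% and 24.5% in MSTO-211H). Genes at the limit in both lines are left out of them by construction. Matricellular genes and proteoglycans had 3 higher and 19 lower of 35 in H2810, and 6 and 15 in MSTO-211H. THBS1, thrombospondin, stood at -1.48 in H2810, and SDC4, a syndecan, at -1.96 in MSTO-211H. YAP/TEAD targets were mixed, with 8 higher and 10 lower of 23 in H2810 and 4 and 8 in MSTO-211H. CCN1, the close relative of CCN2, was called higher in H2810 (0.60) and lower in MSTO-211H (-0.76), a difference that was not tested, whereas CCN2 had log2 ratios of -2.53 and -1.998. Focal adhesion genes had 8 and 15 of 32, and 9 and 11, with the integrin ITGB8 higher in both lines (1.19 and 2.26) and ITGB1 at -1.27 in MSTO-211H. Actin genes had 13 and 7 of 36, and 14 and 11, and HOX genes 5 and 8 of 32, and 0 and 22. Wnt genes had 4 and 16 of 32, and 11 and 8, collagens 4 and 4 of 19, and 12 and 4, and hypoxia genes 9 and 5 of 27, and 8 and 11. Of the lists without members, interferon-stimulated genes had 36 higher and 1 lower of 39 in H2810 and 13 and 14 in MSTO-211H, and cell cycle genes 27 and 3 of 35, and 15 and 9.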

How the data were processed

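The authors deposited raw counts for each Ensembl gene and library, without normalization. Per the labels' protocols, poly-A libraries were sequenced as single-end reads of 65 bases. Per the submitters' processing notes, DESeq2, HTSeq, TopHat and TopHat2 2.0.12 were used, each in a role that is not stated. The human build and the strand setting are not given in the sources used here. All 134 members overlap the gene of the same ID in GENCODE on GRCh38.

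The members, the gene lists and the roles were chosen with earlier results of these data known. Levels are CPM by column sums, and ratios use a pseudocount of 0.25. Each table was fitted whole in edgeR 4.0.16 (R 4.3.3) with filterByExpr, TMM scaling, quasi-likelihood F tests and Benjamini-Hochberg adjustment over all genes tested, and calls are at an adjusted p under 0.05. The SE is the size of the log2 fold change divided by the square root of F. Scripts were tested on simulated data. Genes named by rule were BAP1 and EZH2, the 12 members with the largest difference in the line where it was smaller, the 6 with the highest random hairpin CPM over both lines, the 3 on each side of the limit, up to 4 members per list, up to 6 members called in each direction in each comparison of drug, line or mouse genotype, and up to 2 called genes per list and direction that are no member. Other members are named for their role or their response, after their values were seen. Alternatives were RLE scaling, no filter, a filter of 50 counts in 2 libraries, DESeq2 1.42.0, limma-voom (limma 3.58.1), a fit of just the groups compared, a block on replicate number, each library left out, and for the choice of genes another pseudocount, level, ratio and scaling. A blank line without a gene name in the knockdown table (0 counts) was left out.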

Additional observations from a re-analysis of the deposited data

Results flagged for a closer look

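For 13 of the 45 genes called in H2731 (28.9%), GSK126 moved every library one way in H2731 and the opposite way in H2810. The difference between the lines was not tested, and the H2810 ratios were used to choose the genes. Over all genes expressed in both knockdown lines the same held for 617 of 3424 called (18%). CCN2 was at 0.61 (log2 fold change) in H2731 and at a log2 ratio of -0.75 in H2810, where it went from 1126 to 1145 CPM with DMSO to 669 to 679 with GSK126. ABLIM1 stood at 0.97 in H2731 and -0.37 in H2810, COL6A3 at 1.85 and -0.28, P4HA2 at 0.26 and -0.10, ZBTB16 at 0.50 and -0.16, FN1 at 0.48 and -0.41, and HEG1 at 0.57 and -0.19. PLPP1 was at 0.35 and -0.17, EVI5 at 0.39 and -0.25, JAZF1 at 0.69 and -0.20, and RCAN3 at 0.66 and -0.17. The reverse was seen for SEZ6L2, at -0.21 in H2731 and 0.78 in H2810, and for ALPK2, at -0.30 and 0.28. P4HA2 was not called with DESeq2 (adjusted p = 0.0522) or without any one of DMSO replicate 1, GSK126 replicate 1 or GSK126 replicate 2.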

How the results depend on the processing

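The number of genes chosen was 87 with a pseudocount of 1, 83 with a control level of at least 5 CPM and 39 with a ratio of at most 0.4. It was 133 with TMM-adjusted totals (130 shared) and 131 to 146 with a library left out. With GSK126 in H2731, the number called higher ran from 27 to 45 with a library left out and was 31 with DESeq2. The number called lower ran from 1 to 4 and was 1 with DESeq2. Between the lines the numbers ran from 34 to 38 and from 79 to 83. In the mouse DESeq2 called 5 lower, and every fit with a library left out called 0. List genes outside the set, with 167 called higher and 168 lower in H2810 and 168 and 179 in MSTO-211H, ran from 153 to 172, 143 to 160, 133 to 174 and 139 to 184. Same-numbered replicates were not taken as pairs (residual correlations from -0.0646 to 0.0979 in the knockdown table, -0.0057 to 0.0617 in the drug table and -0.306 to 0.336 in the mouse). With the replicate number as a block, 44 genes were called higher and 3 lower in H2731, 37 and 83 between the lines and 0 in the mouse. For the list genes the block gave 168 and 171 in H2810 and 172 and 180 in MSTO-211H. Of 76 results for named members, 16 alternatives with a library left out and 7 others lost the call, and none reversed. Genes below 5 CPM limit the precision of their ratios. Except for DESeq2 in the mouse, shares of all genes called are not given for these alternatives. No excess over all genes is therefore read from their counts.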

Other observations

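In H2810, 7 of the genes were higher in replicate 1 than in replicate 2 by more than 0.3 on the log2 scale in both hairpin groups, and 1 was lower. In MSTO-211H the numbers were 1 and 0. The 7 were FAT4 (0.89 with the random hairpin and 0.84 with shBAP1), FN1 (0.60 and 0.55), LPP (0.58 and 0.41), NAV2 (0.52 and 0.57), IGF2R (0.49 and 0.51), AC087477.2 (0.46 and 0.37) and COL6A3 (0.41 and 0.46). The replicates of a group have no order. No such count over all expressed genes is given, so nothing is read from it about the chosen genes. Over all genes tested, same-numbered libraries of both H2810 hairpin groups had a residual correlation of -0.063.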
